A study of Mus musculus with 14 samples.

Results

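Polycomb repressive complex 2 (PRC2) is the histone methyltransferase that places H3K27 methylation, a mark of silenced genes, and its genes were followed here in KPY lung tumors with and without an sgRNA against Setd2. The 10 members were chosen by name, from the core and accessory subunits of the complex, and all 10 were found among the 52550 genes of the table and among the 16836 that passed the filter on low counts. Both genotypes carried the Trp53 flox/flox and Rosa26 LSL-YFP alleles and were started with a lentivirus holding Cre, Cas9 and an sgRNA, which was a non-targeting sgBGal in KPY-Ctrl (6 tumors) and sgSetd2 in KPY-Setd2KO (8 tumors). The study's methods describe dissected tumors sorted for live YFP+ cells, in which YFP marks cells that underwent recombination, whereas the labels describe RNA from cell lines, and this conflict was not resolved. Tumors in the mouse models of the study were started by 20 weeks of age, and the time from initiation to harvest of these samples is not given in the sources used here. Fewer mice than tumors are given for each genotype, so some tumors shared a mouse, and all tests treated the tumors as independent.

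In PRC2, Ezh1 and Ezh2 are alternative catalytic subunits, Suz12 is the scaffold, Eed reads the methyl mark already in place and the histone-binding proteins Rbbp4 and Rbbp7 complete the core. Accessory subunits form separate versions of the complex: Jarid2 in one, and the Polycomb-like proteins Phf1, Mtf2 and Phf19, whose Tudor domains bind H3K36 methylation, in the others. Setd2 is the enzyme that trimethylates H3K36, and H3K36 methylation hinders PRC2 from acting on the same histone tail.

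None of the 10 PRC2 genes differed between genotypes at an adjusted p under 0.05 with edgeR (quasi-likelihood test over all genes). In the same test 0% of all 16836 genes passed, so this count is not particular to PRC2. Jarid2 had the largest difference, with a mean 0.577 times that of KPY-Ctrl in KPY-Setd2KO tumors. With genotype in the fit, Eed rose and Phf1 fell with a score of leukocyte-marker RNA, as 57.1% of all genes did in either direction, and neither passed once a proliferation-marker score was added. Ezh2 was 6.95 CPM in 1 KPY-Setd2KO tumor, against 21.7 to 33.9 CPM in the other 13 tumors.

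Total counts per tumor lay between 27866266 and 51828846 for KPY-Ctrl and between 20072236 and 40604404 for KPY-Setd2KO. Setd2, the targeted gene, averaged 53.0 ± 8.51 CPM in the KPY-Ctrl group (SD, n = 6) and 31.7 ± 10.9 CPM in the KPY-Setd2KO group (SD, n = 8), where CPM is the count scaled to the library total after TMM normalization. Its log2 fold change of -0.74 did not pass over all genes (adjusted p = 0.175 from edgeR), whereas tested alone its mean log2 CPM changed by -0.81 (exact permutation test, two-sided, p = 0.00466), and 6 of 8 KPY-Setd2KO tumors lay below every KPY-Ctrl tumor. Over all genes tested, 0% passed an adjusted p of 0.05, and 13.7% had an unadjusted p under 0.05 (6.93% higher and 6.8% lower). Epithelial markers were measured in all tumors, with 10 of 10 tested and summed levels of 13457 to 78916 CPM in KPY-Ctrl and 5774 to 58667 CPM in KPY-Setd2KO tumors. The leukocyte markers, 12 of 12 tested, summed to 303 to 7494 CPM and 272 to 8574 CPM.

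Promoter sequence is shown for the core subunits because the E2F factors that drive the cell cycle are known regulators of core PRC2 genes. In RefSeq sequence of GRCm38.p6, all 10 members had a listed start and 12 promoter windows of 250 bases. The core E2F octamers (TTTCCCGC, TTTCGCGC, TTTGCCGC and TTTGGCGC, both strands) were in 2 of these windows, those of Suz12 and Phf19, and in 1.86% of 32851 promoters of the same length. The Suz12 and Phf19 windows were 73.6% and 75.2% GC, against a median of 52.4% over all promoters. Base composition was therefore not matched, and no enrichment is read from these shares. The CCAAT box (CCAAT on either strand) was in 6 of 12 member windows and in 33.8% of all promoters. In the stretches that follow, read 5′ to 3′ on the strand of the gene and with no base of the annotated gene span, capitals mark an E2F octamer or a CCAAT box, and the Eed and Ezh1 stretches hold neither.
Suz12, chr11:79992856-79993105, plus strand: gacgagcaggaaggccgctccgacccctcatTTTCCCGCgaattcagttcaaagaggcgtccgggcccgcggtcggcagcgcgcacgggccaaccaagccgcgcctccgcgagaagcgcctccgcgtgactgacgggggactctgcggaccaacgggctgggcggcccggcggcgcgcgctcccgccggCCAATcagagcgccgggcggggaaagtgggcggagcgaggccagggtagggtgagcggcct
Eed, chr7:89980984-89981226, minus strand: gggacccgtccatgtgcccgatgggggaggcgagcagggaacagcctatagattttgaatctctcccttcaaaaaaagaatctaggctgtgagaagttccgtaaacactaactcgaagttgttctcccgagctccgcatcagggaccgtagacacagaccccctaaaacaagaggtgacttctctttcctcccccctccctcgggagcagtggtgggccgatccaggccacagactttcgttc
Ezh1, chr11:101226464-101226713, minus strand: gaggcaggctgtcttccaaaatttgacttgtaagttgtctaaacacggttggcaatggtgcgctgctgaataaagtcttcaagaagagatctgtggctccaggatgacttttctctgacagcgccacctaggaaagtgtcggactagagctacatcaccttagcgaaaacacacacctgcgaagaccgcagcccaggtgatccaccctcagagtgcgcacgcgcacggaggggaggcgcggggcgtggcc

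The Ezh2 window held 3 CCAAT boxes, which start 90, 64 and 11 bases before the RefSeq start, and no E2F octamer. The window of the upstream of 2 listed starts of Jarid2, the gene with the largest difference between genotypes, held 1 CCAAT box, 179 bases before the start. Only 30 bases around each box are printed, since the annotated gene spans reach over these windows.
Ezh2, chr6:47595103-47595132, minus strand: ttcggccctctgATTGGacgggcgccctct
Ezh2, chr6:47595077-47595106, minus strand: ctctcgcatcctCCAATcggagaggcgctt
Ezh2, chr6:47595031-47595060, minus strand: ccaaataaaagcgatggcgATTGGgttgct
Jarid2, chr13:44730583-44730612, plus strand: acgctccgcgggCCAATcccgagccagcct
These matches describe the letters of the windows and say nothing about binding in these tumors.

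Levels of different genes were compared per length, as TPM (transcripts scaled to a common total) from the count over merged exon length. Rbbp7 was the highest at 112 ± 43.7 TPM (SD, n = 14 tumors), followed by Rbbp4 at 32.9 ± 8.03 TPM. Both proteins also belong to other chromatin complexes, so their RNA is not read for PRC2 alone. Eed at 20.3 ± 5.91 TPM and Suz12 at 19.0 ± 5.31 TPM did not differ beyond their spread, Eed being the higher in 9 of 14 tumors. Phf1 followed at 11.03 ± 4.94 TPM, Ezh2 at 8.53 ± 2.99 TPM and Ezh1 at 7.67 ± 2.00 TPM. Phf1 was above Ezh2 in 7 of 14 tumors and Ezh2 above Ezh1 in 10 of 14, so the neighbours in this order from Phf1 to Ezh1 were not separated. Mtf2 at 5.57 ± 1.65 TPM was above Jarid2 at 3.32 ± 1.89 TPM in 13 of 14 tumors, and Phf19 was the lowest at 0.675 ± 0.192 TPM, below Jarid2 in 14 of 14. The middle of the order depended on the length used. With the median annotated transcript length, Rbbp7 was again the highest and Phf19 the lowest, and the order between them was Suz12, Eed, Rbbp4, Ezh1, Ezh2, Jarid2, Mtf2 and Phf1. Jarid2 was then above Mtf2, with means of 21.9 and 7.43 TPM, so the order of these 2 genes turned with the length used.

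**Figure D1:**
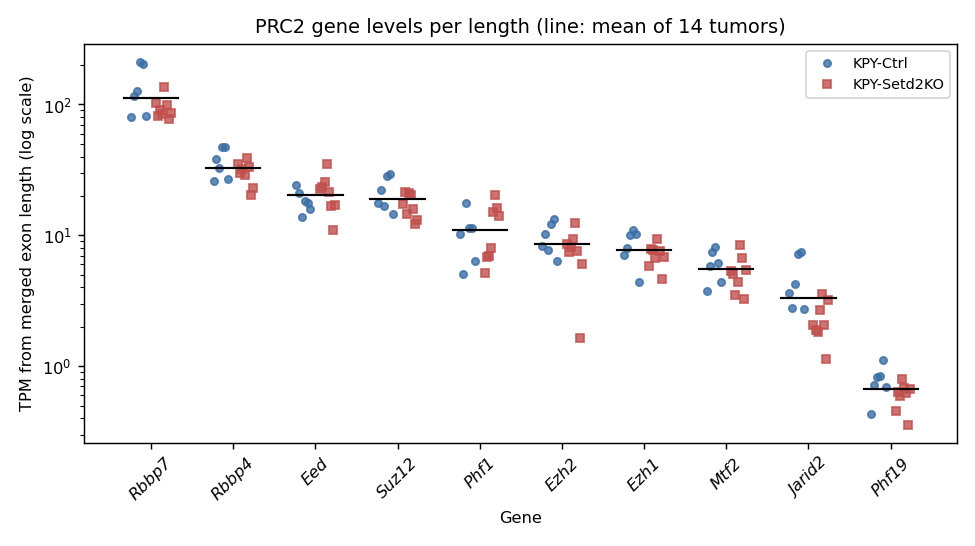
TPM from merged exon length (log axis) of the 10 PRC2 genes, with 1 point per tumor (circles, 6 KPY-Ctrl; squares, 8 KPY-Setd2KO) and a line at the mean of 14 tumors. Means run from 112 TPM for Rbbp7 to 0.675 TPM for Phf19, and the points of Eed with Suz12 and of Phf1 with Ezh2 and Ezh1 overlap.

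Jarid2 (ENSMUSG00000038518.15, GRCm38 chr13:44729474-44921643, plus strand) encodes an accessory subunit that helps to bring PRC2 to chromatin. In KPY-Ctrl tumors 1 to 6 it was at 19.4, 13.2, 18.0, 25.3, 27.7 and 15.9 CPM. In KPY-Setd2KO tumors 1 to 8 it was at 11.6, 10.3, 9.997, 14, 12.9, 9.17, 7.00 and 16.8 CPM. Of the KPY-Setd2KO tumors, 6 of 8 lay below the lowest KPY-Ctrl tumor, number 2, while numbers 4 and 8 lay inside the KPY-Ctrl range, so the groups overlapped. The means were 19.9 ± 5.55 CPM and 11.5 ± 3.07 CPM (SD). The log2 fold change was -0.79 (standard error 0.216, 95% interval -1.25 to -0.33), with an unadjusted p of 0.00236 and an adjusted p of 0.147 from edgeR. The call depended on the fit. The adjusted p was 0.0323 in DESeq2, the tool of the study, where 1.35% of genes passed on the lower side. When the leukocyte-marker score was added to edgeR as a covariate it was 0.0447 (log2 fold change -0.76), against 2.35% of genes lower. With the proliferation-marker score it was 0.0371 (-0.81), against 5.83% lower, and with both scores 0.266 (-0.63), against 0%. Jarid2 itself did not pass the test against either score, with coefficients of -0.05 per unit of the leukocyte-marker score (adjusted p = 0.399) and -0.11 per unit of the proliferation-marker score (adjusted p = 0.780). The scores also did not differ between genotypes at 0.05 by exact permutation, two-sided (p = 0.714 for leukocyte and 0.342 for proliferation markers). The score of T cell, B cell and neutrophil markers, 3 of 6 tested, was higher in KPY-Setd2KO tumors by 1.29 on the log2 scale (exact permutation test, p = 0.00200, adjusted over 7 marker lists 0.0140), with sums of 3.56 to 13.1 CPM in KPY-Ctrl and 7.55 to 18.7 CPM in KPY-Setd2KO. Its part in the Jarid2 difference was not tested. In bulk RNA, fewer cells of a type and less RNA per cell cannot be told apart.

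**Figure D2:**
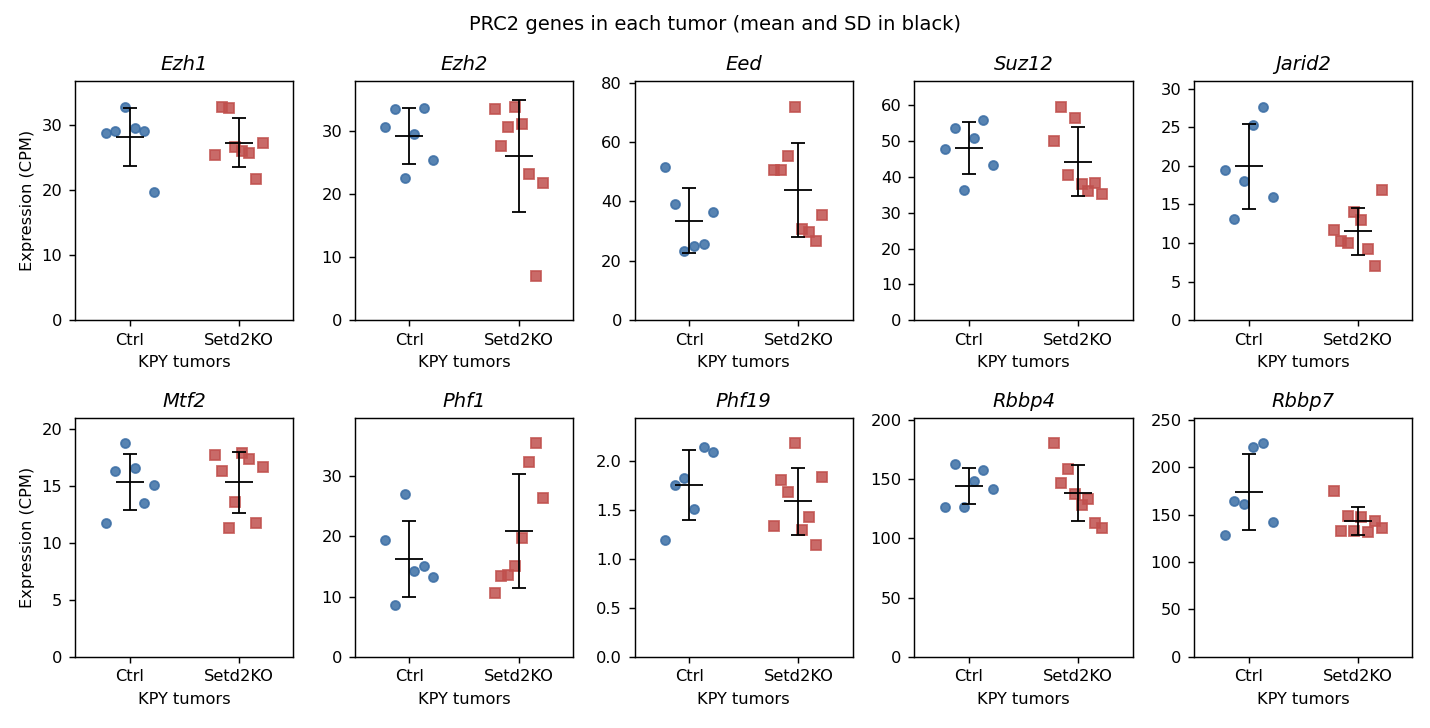
CPM of each PRC2 gene (linear axis from 0) in KPY-Ctrl (circles, n = 6) and KPY-Setd2KO tumors (squares, n = 8), with the mean and SD in black. In the Jarid2 panel 6 of 8 KPY-Setd2KO tumors are below all KPY-Ctrl tumors, and in the Ezh2 panel KPY-Setd2KO tumor 7 stands at 6.95 CPM below the rest.

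The catalytic subunits did not separate the genotypes. Ezh2 (ENSMUSG00000029687.16, chr6:47530139-47595341, minus strand) was at 30.6, 33.5, 22.6, 29.6, 33.7 and 25.4 CPM in KPY-Ctrl tumors 1 to 6. In KPY-Setd2KO tumors 1 to 8 it was at 33.5, 27.7, 30.7, 33.9, 31.1, 23.3, 6.95 and 21.7 CPM. Tumor 7 had 134 counts of Ezh2 and the lowest total of the series, and the other 7 tumors overlapped the KPY-Ctrl range. The log2 fold change was -0.16 (95% interval -0.74 to 0.41, adjusted p = 0.860 in edgeR's test), and -0.02 without tumor 7. Ezh1 (ENSMUSG00000006920.14, chr11:101191115-101226463, minus strand) was at 28.2 ± 4.44 CPM in KPY-Ctrl and 27.3 ± 3.77 CPM in KPY-Setd2KO, a log2 fold change of -0.05 (95% interval -0.34 to 0.25). Its lowest tumors were KPY-Ctrl 6 at 19.7 CPM and KPY-Setd2KO 7 at 21.7 CPM.

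Because Ezh2 is known to predominate in dividing cells and Ezh1 in resting ones, their ratio was also compared. The log2 ratio of Ezh2 to Ezh1 CPM averaged 0.05 ± 0.32 over KPY-Ctrl tumors (SD, n = 6) and -0.18 ± 0.65 over KPY-Setd2KO tumors (SD, n = 8). The difference was -0.23 (exact permutation test, two-sided, p = 0.511). The ratio was -1.63 in KPY-Setd2KO tumor 7 and between -0.33 and 0.39 in the other 7, and without tumor 7 the difference was -0.03. Per length, the median ratio of Ezh2 to Ezh1 was 1.23 in KPY-Ctrl (range 0.765 to 1.44) and 1.03 in KPY-Setd2KO tumors (range 0.357 to 1.46), so neither enzyme was uniformly the more abundant RNA. KPY-Setd2KO tumors 6 and 7 had the lowest proliferation-marker scores (4.27 and 4.30, against 4.55 to 5.55 in the other tumors), and the coefficient of Ezh2 on this score was 0.67 per unit (95% interval -0.04 to 1.38, adjusted p = 0.109 in edgeR's test).

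Of the other core subunits, Eed (ENSMUSG00000030619.9, chr7:89954654-89980983, minus strand) varied most between tumors. It was at 51.4, 39.2, 23.4, 25.1, 25.7 and 36.5 CPM in KPY-Ctrl tumors 1 to 6, and at 50.7, 50.5, 55.4, 71.9, 30.6, 29.6, 26.8 and 35.3 CPM in KPY-Setd2KO tumors 1 to 8. Tumors 3 and 4 of KPY-Setd2KO were above the whole KPY-Ctrl range, and the others were inside it. The log2 fold change was 0.39 (95% interval -0.17 to 0.94, adjusted p = 0.563 in edgeR's test). With the proliferation-marker score as a covariate it was 0.58 (adjusted p = 0.0366, against 3.55% of genes higher), with the leukocyte-marker score 0.31 (adjusted p = 0.139) and with both 0.40 (adjusted p = 0.239). Suz12 (ENSMUSG00000017548.15, chr11:79993106-80034123, plus strand) was at 48.0 ± 7.26 CPM in KPY-Ctrl and 44.3 ± 9.68 CPM in KPY-Setd2KO, with a log2 fold change of -0.12 (95% interval -0.46 to 0.23).

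The histone-binding proteins had the highest mean CPM of the members, and neither passed the genotype test. Rbbp4 (chr4:129307100-129335370, minus strand) was at 143.8 ± 15.3 CPM in KPY-Ctrl and 138 ± 23.6 CPM in KPY-Setd2KO, a log2 fold change of -0.06 (95% interval -0.36 to 0.24). Rbbp7 (chrX:162760402-162779092, plus strand) was at 174 ± 40.3 CPM and 143 ± 14.5 CPM, a log2 fold change of -0.28 (95% interval -0.60 to 0.05, unadjusted p = 0.0889, adjusted p = 0.456 in edgeR's test). KPY-Ctrl tumors 4 and 5, at 221 and 225 CPM, were above all KPY-Setd2KO tumors, and the other 4 lay between 128 and 164 CPM. With quality weights in limma voom the Rbbp7 difference passed, at -0.48 (adjusted p = 0.00979), in a fit where 24.7% of all genes passed on the lower side. The largest weights of that fit, 3.55 and 4.76, were those of KPY-Ctrl tumors 4 and 5.

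Among the Polycomb-like subunits, Mtf2 (chr5:108065674-108109004, plus strand) had nearly equal means, 15.3 ± 2.46 CPM in KPY-Ctrl and 15.3 ± 2.71 CPM in KPY-Setd2KO, with a 95% interval of the log2 fold change from -0.34 to 0.34. Phf19 (chr2:34893757-34914026, minus strand) was the lowest of the members, at 1.76 ± 0.359 CPM and 1.59 ± 0.347 CPM, with 22 to 97 counts per tumor and a log2 fold change of -0.14 (95% interval -0.67 to 0.38). Phf1 (ENSMUSG00000024193.7, chr17:26933052-26937908, plus strand) was at 19.5, 8.63, 27.1, 14.3, 15.1 and 13.3 CPM in KPY-Ctrl tumors 1 to 6. In KPY-Setd2KO tumors 1 to 8 it was at 10.6, 13.4, 13.6, 15.1, 19.7, 32.4, 35.5 and 26.5 CPM. Tumors 6 and 7 were above the whole KPY-Ctrl range and the others inside it, and the log2 fold change was 0.35 (95% interval -0.33 to 1.03, adjusted p = 0.695 in edgeR's test).

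Over the 10 members, the median log2 fold change was -0.09, beside 0.03 over all genes tested. In the genotype-only test 1 of 10, Jarid2, had an unadjusted p under 0.05, beside 13.7% of all genes, so the share of members was near the background. No member had groups that did not overlap, beside 0.57% of all genes.

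**Figure D3:**
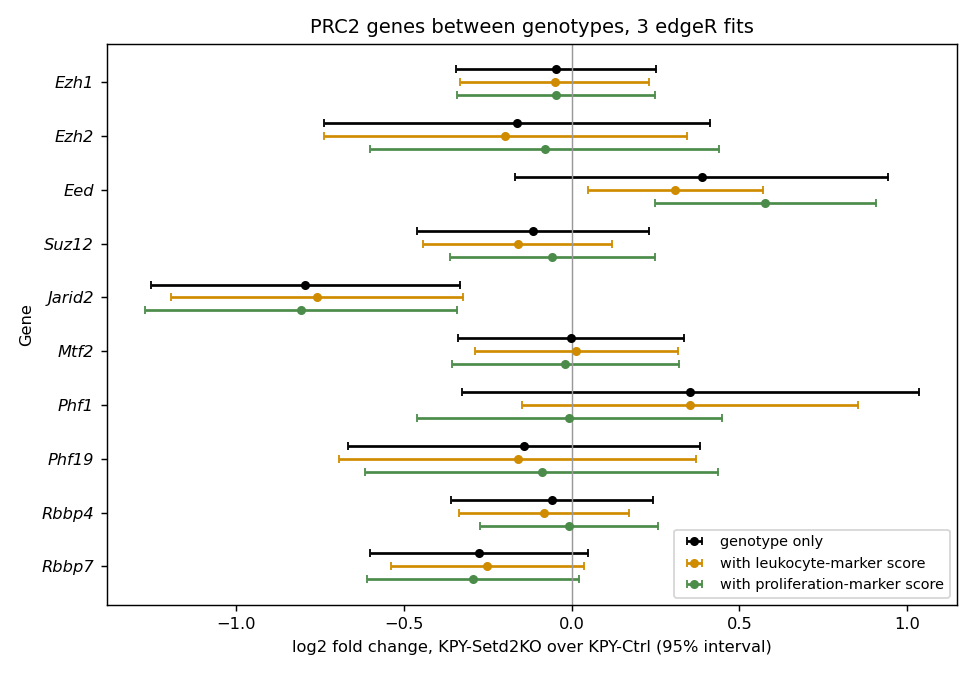
Log2 fold change of KPY-Setd2KO over KPY-Ctrl with its 95% interval for each PRC2 gene, from edgeR fits with genotype only (black), with the leukocyte-marker score (orange) and with the proliferation-marker score (green). The Jarid2 intervals lie below 0 in the 3 fits, from estimates of -0.76 to -0.81, while those of Ezh1, Ezh2, Suz12, Mtf2, Phf1, Phf19, Rbbp4 and Rbbp7 include 0.

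Which members varied with the cells in each sample was examined with the leukocyte-marker score in a fit with genotype. This score is the mean log2 CPM of 12 general leukocyte and macrophage genes. The score lay between 3.63 and 8.67 for KPY-Ctrl and between 3.50 and 8.97 for KPY-Setd2KO, with no tumor between 5.52 and 8.12, so a coefficient mostly reads the step across this gap. Eed rose by 0.19 log2 units per unit of score (95% interval 0.13 to 0.25, adjusted p = 3.87e-05 in edgeR's test), and Phf1 fell by 0.18 (95% interval -0.30 to -0.07, adjusted p = 0.0101). The coefficients of the other 8 members did not pass, the nearest being Suz12 at 0.07 (adjusted p = 0.0619). Over all genes 57.1% passed this test (28.5% higher and 28.6% lower), and 2 of 10 members did. This count depended on the scaling: with library size only, 5 of 10 members passed (Eed higher, and Jarid2, Mtf2, Phf1 and Rbbp7 lower), beside 59% of all genes. Against the proliferation-marker score the same genes passed, Eed at 1.08 per unit (adjusted p = 0.00139) and Phf1 at -1.22 (adjusted p = 0.00281), beside 47.7% of all genes, while with library size only none of the 10 members and 0% of all genes did. With both scores in 1 fit, neither gene passed on either score. On the leukocyte-marker score Eed was then at 0.14 (adjusted p = 0.0826) and Phf1 at -0.00 (adjusted p = 1.00), beside 19.2% of all genes. On the proliferation-marker score Phf1 was at -1.22 (adjusted p = 0.952), beside 0% of all genes at an adjusted p under 0.05 and 5% at an unadjusted p under 0.05. The 2 scores rose together: proliferation-marker scores were 5.09 to 5.55 in tumors with leukocyte-marker scores from 8.12, and 4.27 to 4.79 in the others. With both in the fit, the standard error grew from 0.0276 to 0.0531 for Eed on the leukocyte-marker score. For Phf1 on the proliferation-marker score it grew from 0.266 to 0.510. The fit with both therefore cannot tell the scores apart.

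**Figure D4:**
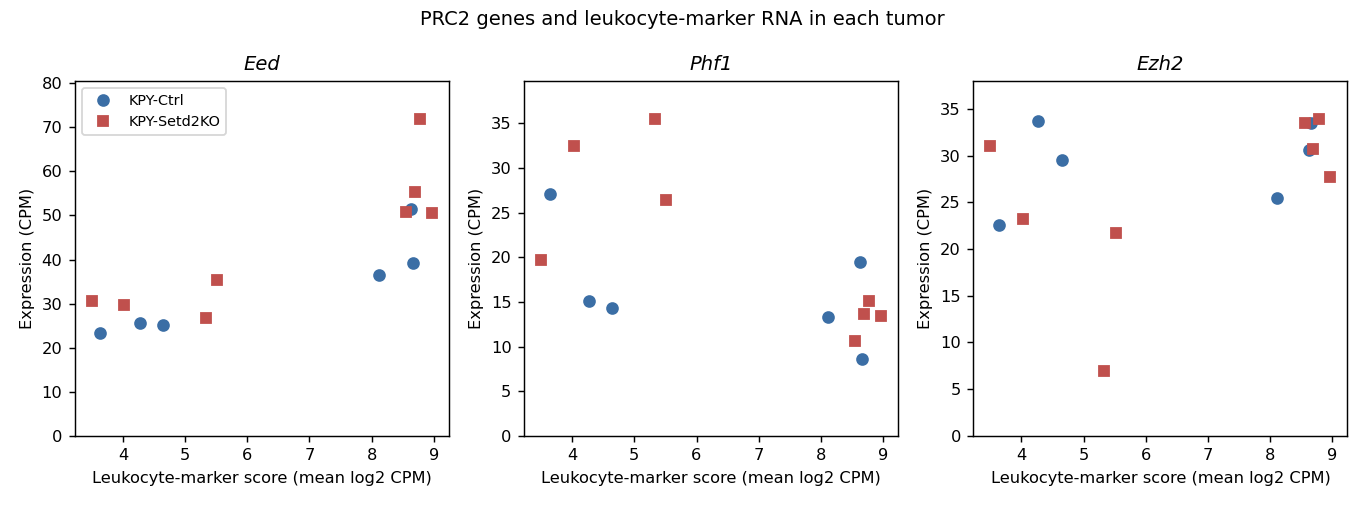
CPM of Eed, Phf1 and Ezh2 (linear axes from 0) against the leukocyte-marker score in mean log2 CPM, with 1 point per tumor (circles, KPY-Ctrl; squares, KPY-Setd2KO). Eed was between 23.4 and 35.3 CPM in the tumors with scores up to 5.52 and between 36.5 and 71.9 CPM in those with scores from 8.12, whereas the Ezh2 values of both kinds overlap.

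Some members share sequence with another gene, most often one that overlaps them on the opposite strand, and reads of the pair could be counted together if strand was not used. Of the 75-base windows of the longest coding transcript, 31.4% in Rbbp4, 11% in Phf1, 9.54% in Rbbp7, 9.38% in Eed and 8.08% in Mtf2 also occurred in another gene. The share was 0.7% in Ezh2 and 2.47% in Suz12, and no window of Ezh1, Jarid2 or Phf19 was shared. For Eed the other gene was E230029C05Rik, at 2.75 CPM in KPY-Ctrl and 4.54 CPM in KPY-Setd2KO tumors, and its leukocyte-marker coefficient of 0.19 did not pass (adjusted p = 0.138). For Phf1 it was mainly Cuta, at 50.5 and 53.3 CPM, whose coefficient was 0.07 (adjusted p = 0.101), opposite in sign to that of Phf1. For Mtf2 it was Tmed5, which rose by 0.46 per unit of score (adjusted p = 7.71e-08) while Mtf2 was at -0.04.

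The genes whose deviations from the genotype means were most like those of Ezh2 over the 14 tumors were the processed pseudogenes Gm8116, Gm15720 and Gm17377 and the coding genes Wdr76 and Senp5, with Pearson's r from 0.972 to 0.947. All 5 were lowest in KPY-Setd2KO tumor 7, as Ezh2 was, and without that tumor r ranged from 0.872 to 0.728. For Ezh1 they were BC001981, Fto, Gm2004, Setd7 and Tbck, with r from 0.905 to 0.825, and from 0.881 to 0.776 without that tumor. No other PRC2 gene was among the 5 closest to either enzyme. These values are descriptions over tumors that share a wide range of cell composition.

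The other Polycomb genes also gave 0 calls in the genotype test of edgeR, where 0% of all genes passed. Of the additional PRC2 partners, 4 of 5 were tested and none had an unadjusted p under 0.05, beside 13.7% of all genes. Lcor was at 8.18 CPM in KPY-Ctrl and 5.37 CPM in KPY-Setd2KO (log2 fold change -0.60). Lcorl was at -0.37, Epop at -0.05 and Aebp2 at 0.15 on the log2 scale, and Ezhip did not pass the filter. Of the PRC1 genes, whose complex ubiquitinates H2A and reads the PRC2 mark, 21 of 22 were tested and had a median log2 fold change of 0.03. Only Kdm2b, the subunit that binds unmethylated CpG islands, had an unadjusted p under 0.05, beside 13.7% of all genes. Kdm2b was at 13.9 and 8.97 CPM (log2 fold change -0.64, edgeR adjusted p = 0.330). Cbx2 had the largest change in this list, at -0.71 (adjusted p = 0.695). Of 8 genes of the PR-DUB complex, which removes H2A ubiquitin, 7 were tested. An unadjusted p under 0.05 was found for 1, beside 13.7% of all genes. This was Hcfc1, at 71.1 and 43.9 CPM (log2 fold change -0.69, unadjusted p = 0.0423, adjusted p = 0.341 in edgeR's test).

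The enzymes that remove H3K27 methylation, Kdm6a and Kdm6b, were at -0.25 and 0.03 on the log2 scale. The acetyltransferases that place the opposing H3K27 acetylation, Crebbp and Ep300, were at -0.38 and -0.37, with adjusted p of 0.463 and 0.487 in edgeR's test. The other H3K36 methyltransferases were at -0.56 for Nsd1, -0.29 for Nsd2, 0.29 for Nsd3 and -0.52 for Ash1l, and none passed. Among 11 E2F and Rb family genes, all tested, none had an unadjusted p under 0.05, beside 13.7% of all genes. E2f5 had the smallest p (-0.40, unadjusted p = 0.0625) and E2f3 the largest change (-0.44).

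Genes known from other cells as Polycomb targets were mostly below the filter. Of 39 Hox genes only Hoxd11 passed the filter of the edgeR fit, and 14 of the other 38 had no count in any tumor. Hoxd11 was at 0.0239 to 0.323 CPM in KPY-Ctrl (1 to 15 counts) and at 0.0323 to 2.80 CPM in KPY-Setd2KO tumors (1 to 54 counts), so the groups overlapped (log2 fold change 2.42, adjusted p = 0.222 in edgeR's test). Its adjusted p was 0.0449 in DESeq2, where 1.99% of genes passed on the higher side, and 0.0474 in edgeR with the leukocyte-marker covariate, where 3.06% did. Hoxb4, named after its values were seen, passed in DESeq2 (adjusted p = 0.0347), with 0 to 11 counts in KPY-Ctrl and 3 to 34 counts in KPY-Setd2KO tumors. Of 37 other targets 11 were tested, and 9 of these had a log2 fold change above 0 and 2 below 0. An unadjusted p under 0.05 on the higher side was found for 5, beside 6.93% of all genes. This list was assembled with earlier results known, and a low gene passes the filter where it is high, so its counts are no evidence of a shared direction. Cdkn2a and Gata6, also named after their values were seen, were targets with higher levels and went the other way. The median of Cdkn2a was 109 CPM in KPY-Ctrl and 60.1 CPM in KPY-Setd2KO, and that of Gata6 48.1 and 27.8 CPM. Pax9, a developmental transcription factor, was at 0.0227 to 0.149 CPM in KPY-Ctrl (1 to 6 counts) and 0.161 to 9.43 CPM in KPY-Setd2KO tumors (5 to 368 counts). The CPM did not overlap, beside 0.327% of genes on the higher side, while the counts did. Its log2 fold change was 4.83 (adjusted p = 0.118 from edgeR), and its adjusted p was 5.89e-05 in DESeq2 and 0.0140 in edgeR with the leukocyte-marker covariate. Pax9 was low in every KPY-Ctrl tumor and passed the filter through its KPY-Setd2KO values, so these figures are no support for a difference. The same limit applies to Hoxd11. Hoxb4 did not pass the edgeR filter and was named after its values were seen, so its DESeq2 call is no support either. Bmp7, the target with the largest change (log2 fold change 4.92, adjusted p = 0.257), was at 104.1 and 96.7 CPM in KPY-Setd2KO tumors 5 and 6 and at 0.0358 to 2.39 CPM in the other 12 tumors, while its median was 0.474 CPM in KPY-Ctrl and 0.262 CPM in KPY-Setd2KO.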

How the data were processed

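RNA was sequenced in 14 KPY tumors, and the values the authors deposited are estimated counts, 1 whole number per gene and tumor, made with Salmon 0.8.2 against GRCm38.p5 per the labels' processing notes, with no normalization. The strandedness used in counting was not given in the sources used here. Of 52550 rows, 52403 had a GENCODE vM21 symbol. The members and lists were chosen with earlier results of these data known.

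Counts were fitted in edgeR 4.0.16 (R 4.3.3; filterByExpr, TMM, robust quasi-likelihood test) on all 16836 genes passing the filter, and p-values were adjusted by Benjamini-Hochberg over all of them. Log2 CPM used a prior count of 2. Alternatives were DESeq2 1.42.0, limma 3.58.1 (voom with sample quality weights), other scalings and filters, marker scores as covariates, a replicate block and leaving out each tumor. Named genes were the members and Setd2, the genes with the smallest p and the largest change in each other list, all genes of lists of up to 5, and the 5 genes most like Ezh2 and Ezh1. Every member but Phf19 had at least 134 counts in each tumor. No tumors held identical counts. The fits were also run on simulated counts, drawn independently for each tumor and in part with a smaller spread than in these data. Those runs do not measure how the fits perform on these tumors. Whether tumors came from separate mice is not given per tumor. One allele that all tumors share is not reported here.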

Additional observations from a re-analysis of the deposited data

Results flagged for a closer look

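In 28 sets of values (each of 14 measures in each genotype), 4 had a tumor farther from the others than Dixon's 95% limit, where chance flags about 1 in 20. Ezh1 in KPY-Ctrl tumor 6 had a log2 CPM of 4.30, and the other 5 lay between 4.86 and 5.04. Ezh2 in KPY-Setd2KO tumor 7 had a log2 CPM of 2.81, and the other 7 lay between 4.44 and 5.09. The log2 ratio of Ezh2 to Ezh1 was -1.63 in the same tumor, against -0.33 to 0.39 in the others, and it shares its numerator with the previous value. Rbbp7 in KPY-Setd2KO tumor 1 had a log2 CPM of 7.45, and the other 7 lay between 7.04 and 7.22. No explanation of these values was tested.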

How the results depend on the processing

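No member passed in the genotype test with edgeR under RLE or library size scaling, another filter, both covariates or any tumor left out. Of all genes, 0 passed in the same fits, or 0 to 1 with a tumor left out. The number that passed was 1 with DESeq2 (beside 1.99% of all genes higher and 1.35% lower), 1 with the leukocyte-marker covariate (3.06% and 2.35%) and 2 with the proliferation-marker covariate (3.55% and 5.83%). With limma voom and quality weights it was 3 (Jarid2 -1.08, Eed 0.85 and Rbbp7 -0.48), beside 8340 of 16836 genes. That fit gave weights of 3.55 and 4.76 to KPY-Ctrl tumors 4 and 5 (leukocyte-marker scores 4.65 and 4.26). KPY-Setd2KO tumors 1 to 4 (scores 8.56 to 8.97) had 1.28 to 2.10, and tumors 5 to 8 had 0.412 to 0.613. Genotype and leukocyte-marker RNA cannot be told apart in it. At an unadjusted p under 0.05 the number of members was 2 with library size only, with either covariate and with both, 3 with limma voom, and 1 to 2 with a tumor left out. No share over all genes was set beside these counts, so they are not read as a result. Library size scaling moved the median of all genes from 0.03 to -0.11 (log2), and Jarid2 to -0.96. With a tumor left out Jarid2 ranged from -0.89 to -0.68 (adjusted p from 0.129 to 0.376). Genes called at an adjusted p under 0.05 numbered 677 of 20288 with DESeq2. Of 16836 genes they numbered 8340 with limma voom, 912 with the leukocyte-marker and 1580 with the proliferation-marker covariate. With an absolute log2 fold change over 1 the calls were 457, 4753, 375 and 772, and with a tumor left out 0 to 1 (1 without KPY-Ctrl tumor 6). Other Polycomb genes called at an adjusted p under 0.05 numbered 3, 23, 3 and 6 in the same order, beside those totals over all genes. Tested in edgeR were 4 additional PRC2 partners, 21 PRC1, 7 PR-DUB, 2 H3K27 demethylase, 2 acetyltransferase and 1 Hox gene and 11 other targets. These counts are not read as a result about Polycomb genes. Setd2 passed with limma voom (-0.75), the leukocyte-marker (-0.84) and the proliferation-marker covariate (-0.68), and ranged from -0.85 to -0.66 with a tumor left out.

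Signs turned, with no call, for Mtf2 with RLE scaling (0.00083), the leukocyte-marker covariate (0.014), both covariates (0.14) and 6 of 14 tumors left out (-0.067 to 0.059). With both covariates they also turned for Ezh2 (0.074), Phf1 (-0.0064, and -0.0066 with the proliferation-marker covariate), Phf19 (0.032) and Rbbp4 (0.013). Against the leukocyte-marker score the number of members that passed was 5 with library size only (59% of all genes), 0 with the proliferation-marker score added (19.2%) and 2 to 3 with a tumor left out. Against the proliferation-marker score it was 0 with library size only (0% of all genes), 0 with the leukocyte-marker score added (0%) and 2 to 3 with a tumor left out. For both scores, the counts with a tumor left out have no share over all genes beside them and are not read as a result.

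The replicate numbers did not pair the tumors, since the correlations of same-numbered deviations ran from -0.66 to 0.66 and only KPY-Ctrl tumors 2 and 5 had their own number as the closest KPY-Setd2KO tumor. The replicate block gave 0 calls and turned the sign of Ezh1 (0.0086), Ezh2 (0.040), Mtf2 (0.030), Rbbp4 (0.030) and the log2 ratio of Ezh2 to Ezh1 (0.031, range with a tumor left out -0.35 to -0.03). The cause of these differences was not tested. Jarid2, Eed, Suz12 and Rbbp7 kept their direction under all 24 alternatives.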
